A study of Drosophila melanogaster with 2 samples.

Results

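Hox genes give each segment of the fly embryo its identity, and the segmentation genes lay the segments out before them. They were taken as a list of 32 protein-coding genes: the 8 Hox genes of the Antennapedia and bithorax complexes, the Hox cofactors exd and hth, the maternal genes bcd and cad, 5 gap genes, 3 head gap genes, 8 pair-rule genes and 4 segment polarity genes. All 32 symbols were found among the 13945 protein-coding genes of the chromosome arms. A gene was given every thresholded binding summit that lay within its span, or that had a start site of the gene as its nearest protein-coding start site.

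The summits come from chromatin immunoprecipitation and sequencing (ChIP-seq) in whole embryos of Drosophila melanogaster, 8 to 24 hours old. All embryos carried a dati-eGFP fusion gene, an insertion targeting dati, and the fusion protein was pulled down with an antibody against GFP. There were 2 biological replicates of this 1 group and no second condition, so no groups were compared and no test was made. The dati gene encodes a zinc finger protein; the fusion protein stands in for the native protein, and the peaks were called against a control alignment shared by the replicates. In whole embryos, strong binding in few cells and weak binding in many cannot be told apart.

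In the textbook order of events, maternal proteins such as Bicoid and Caudal set up the long axis of the egg and switch on gap genes in broad domains. Gap proteins position the stripes of pair-rule genes, and pair-rule proteins position the segment polarity genes, whose products keep the segment borders. Most of these genes are read from distant enhancers, and the Hox complexes are kept silent outside their domains by Polycomb group proteins. At the labelled age the early stripes have gone, while Hox genes, hth, en, inv, wg and hh remain in use, many of them also in the nervous system.

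Of the 32 genes, 13 had at least 1 thresholded summit by this rule, 40.6% of the list, against 11.8% of all protein-coding genes (1643 of 13945). The list received 18 of the 1892 summits on the arms: 4 went to hth, 2 each to Antp and ems, and 1 each to lab, abd-A, Abd-B, cad, knrl, oc, odd, slp2, inv and hh. In none of the 32 genes did a summit come within 1000 bp of any of its start sites, against 9.52% of all protein-coding genes. Summits inside the gene span were found for 6 genes, Antp, hth, lab, cad, inv and hh, or 18.8%, against 6.52% of all genes and 14.2% at the shares of their span classes, given further on.

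The sequences under 6 of these summits are shown because they are the strongest of the list, 1 per gene, and because they hold the letters counted further on. Each gives the summit base with 100 bases to each side, on the plus strand of build dm6, 5′ to 3′, from the RefSeq copy of the Release 6 assembly. Capitals mark matches, on either strand, to 1 of the 10 short motifs searched. The places are chr2L:3832417-3832617 for slp2, chrX:8627247-8627447 for oc, chr3R:6920089-6920289 for Antp, chr2L:20780849-20781049 for cad, chr3R:16919159-16919359 for Abd-B and chr3R:16834731-16834931 for abd-A.
slp2: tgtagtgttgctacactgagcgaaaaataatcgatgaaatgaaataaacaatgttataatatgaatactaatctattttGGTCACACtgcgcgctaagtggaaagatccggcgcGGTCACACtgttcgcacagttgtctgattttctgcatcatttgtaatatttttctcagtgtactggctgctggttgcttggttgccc
oc: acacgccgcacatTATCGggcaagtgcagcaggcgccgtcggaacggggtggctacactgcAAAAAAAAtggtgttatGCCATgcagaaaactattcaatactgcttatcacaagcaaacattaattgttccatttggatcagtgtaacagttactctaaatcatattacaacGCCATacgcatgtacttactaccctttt
Antp: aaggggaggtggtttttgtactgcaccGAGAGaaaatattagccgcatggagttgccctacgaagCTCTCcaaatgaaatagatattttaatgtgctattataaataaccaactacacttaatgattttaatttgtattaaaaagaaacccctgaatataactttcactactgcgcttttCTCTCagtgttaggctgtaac
cad: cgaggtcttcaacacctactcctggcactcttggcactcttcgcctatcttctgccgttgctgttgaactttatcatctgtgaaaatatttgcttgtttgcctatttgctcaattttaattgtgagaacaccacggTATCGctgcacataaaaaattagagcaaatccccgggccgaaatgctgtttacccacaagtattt
Abd-B: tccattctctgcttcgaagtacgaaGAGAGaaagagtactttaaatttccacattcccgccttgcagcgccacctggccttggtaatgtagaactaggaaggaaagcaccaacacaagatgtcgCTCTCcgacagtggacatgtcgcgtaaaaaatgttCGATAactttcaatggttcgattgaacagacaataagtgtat
abd-A: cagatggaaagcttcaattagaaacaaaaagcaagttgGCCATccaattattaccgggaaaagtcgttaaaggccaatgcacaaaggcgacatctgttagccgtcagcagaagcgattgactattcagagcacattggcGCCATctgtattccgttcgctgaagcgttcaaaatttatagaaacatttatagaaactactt
The capitals of slp2 are GGTCACAC, the core of the site of the promoter protein M1BP. Those of Antp are GAGAG or its complement, the site of GAGA factor. Those of abd-A are GCCAT, the core of the site of the Polycomb group protein Pho. The oc window holds the Pho core as well, with a run of A. CGATA, the core of the site of the insulator protein BEAF-32, is in the oc, cad and Abd-B windows, and the Abd-B window also holds the GAGA factor site.

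The size of the genes bears on these counts. The median span of the 32 genes was 7.88 kb, against 2.17 kb over all protein-coding genes, and the stretch in which a summit would be given to a gene had a median of 29.8 kb, against 5.25 kb. Longer genes carried summits more often: 7.57% of all genes under 5 kb had one by the rule, 19.2% of those from 5 to 20 kb, 32.4% of those from 20 to 50 kb and 48.2% of those of 50 kb or more. In the list the counts were 3 of 15 genes under 5 kb, 3 of 7 from 5 to 20 kb, 5 of 7 from 20 to 50 kb and 2 of 3 of 50 kb or more. Had the listed genes carried summits at the share of all genes of their span class, 6.20 of the 32 would have had one, in place of 13. This reckoning matches the spans, not the wider stretch in which a summit would be given to a gene. For summits inside the span the same reckoning gave 4.53 genes, in place of 6, and for summits within 1000 bp of a start site 3.77, in place of 0.

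Per length of sequence the list carried about as many summits as the genome, with fewer of them at promoters. In the 1.17 Mb that belonged to the listed genes by the rule there were 15.4 summits per Mb (exact Poisson 95% interval 9.10 to 24.3), against 14.1 (13.5 to 14.8) over all genes. Summits outside promoters, where a promoter is the 500 bp to each side of any annotated start site, numbered 14.5 per Mb (8.45 to 23.2) in the list and 7.60 (7.14 to 8.09) over all genes. Promoter summits numbered 0.853 per Mb (0.0216 to 4.76) in the list and 6.53 (6.10 to 6.98) over all genes. These intervals cover counting error only, and summits of 1 gene are not independent: without hth the density outside promoters was 12.7 per Mb (6.78 to 21.8).

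The 18 summits lay in introns and between genes. Introns held 11 of them (61.1%, exact Clopper-Pearson 95% interval 35.7 to 82.7), against 36.0% (33.8 to 38.2) of all 1892 summits. Intergenic sequence held 6 (33.3%, 13.3 to 59.0), against 14.1% (12.6 to 15.8). The remaining 1 was a promoter summit (5.56%, 0.141 to 27.3), against 46.2% (43.9 to 48.5) of all summits. That summit, 463 bp upstream of the start site of CG31457, lies inside hh. Among summits outside promoters, introns held 11 of 17 in the list and 681 of 1018 in all, so introns stood out only through the few promoter summits. The intronic summits of abd-A and Abd-B lay in genes off the list. Distances to the closest protein-coding start site had a median of 11862 bp for the 18 and 754 bp for all summits. For the 1018 summits outside promoters the median was 3048.5 bp. Within the list 14 of the 18 (77.8%, 52.4 to 93.6) were more than 5000 bp from such a start site, against 19.9% (18.1 to 21.7) of all. The rule gives distant summits to genes with wide surroundings, so these distances follow in part from the choice of genes.

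**Figure D1:**
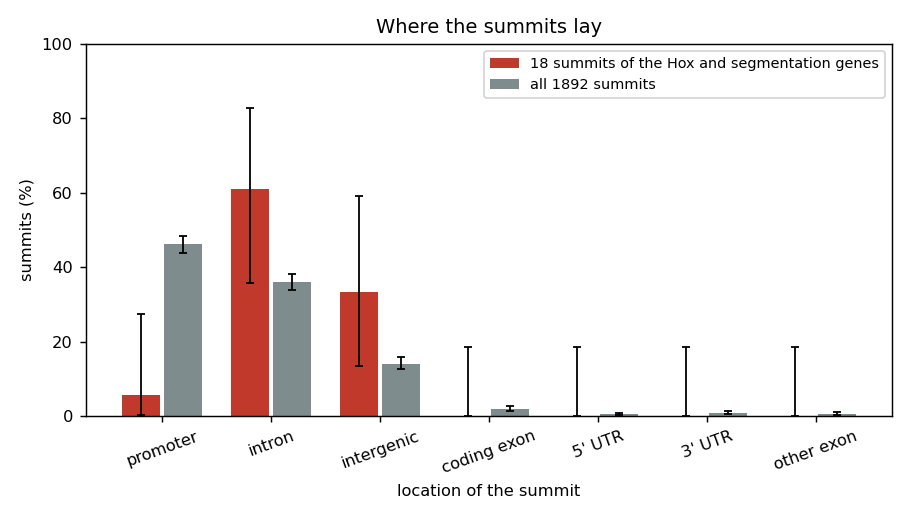
Share of summits (%) in each kind of location, for the 18 summits of the Hox and segmentation genes (red, left) and all 1892 summits (grey, right); bars are shares and lines are exact 95% binomial intervals. Promoters held 5.56% of the 18 summits and 46.2% of all summits, while introns held 61.1% and 36.0%. Outside promoters, introns held 11 of 17 summits of the list and 681 of 1018 of all.

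Most of the 18 summits were weak for the thresholded set. The signal is the authors' own value for each peak, and its scale is not stated in the labels or files. Its median was 64.7 for the 18, against 78.6 for all summits and 73.6 for the 1018 summits outside promoters. Of the 18, 2 were among the stronger 946 of the 1892, those of slp2 and oc. The set was thresholded on the IDR, the irreproducible discovery rate, which is low where peaks keep their ranks between the data compared. The largest IDR in the set was 0.01. Just inside it were the second summit of ems, with an IDR of 0.00886 and a signal of 52.1, and that of odd, with 0.00688 and 61.6. Among the best places outside the set of genes with no summit, that of pb had the lowest IDR, 0.0323, with a signal of 53.9. That of bcd came next, with 0.046 and 53.2, and both values are well above the 0.01. A low IDR in this set does not by itself show that both replicates hold the place. The abd-A summit had an IDR of 0.00203, yet replicate 2's ranked list held no place overlapping it.

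**Figure D2:**
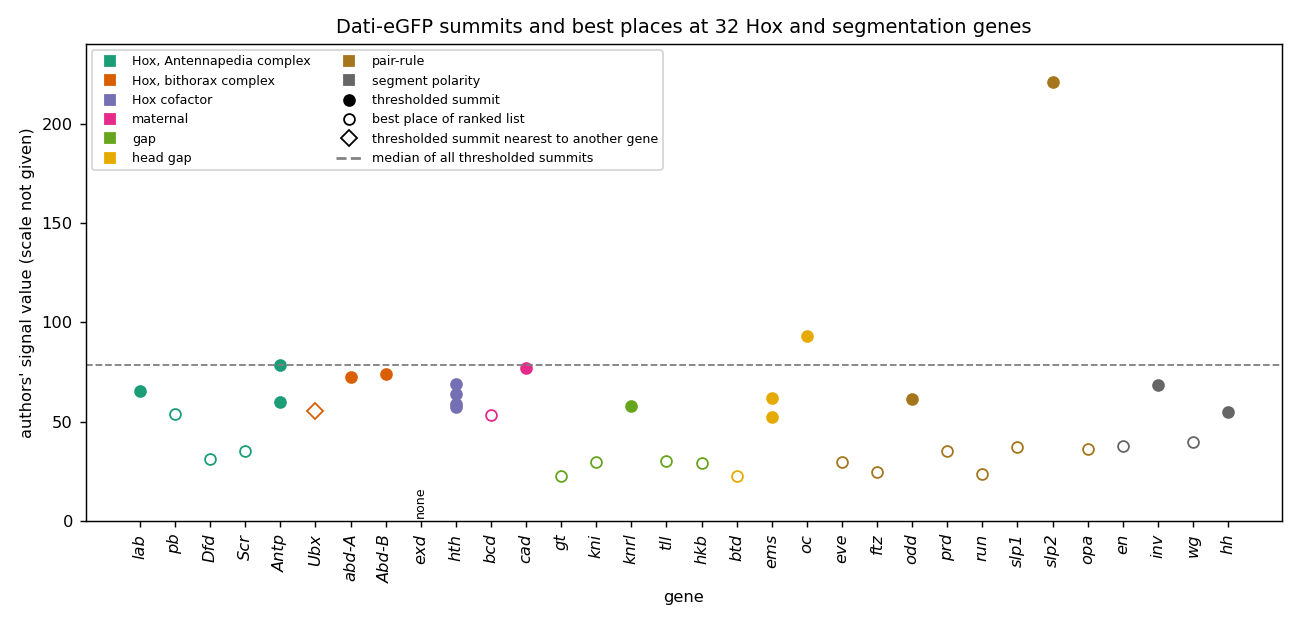
Authors' signal value (y axis, scale not given) at each of the 32 genes (x axis, coloured by class). Filled points are the 18 thresholded summits, open circles the best place of the ranked list over both replicates for genes with none, the open diamond a thresholded summit beside Ubx that is nearest to another gene, and the dashed line the median of all summits, 78.6. The slp2 summit, at 220.9, stands far above the rest, and exd has no place.

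Each replicate also has its own ranked list, in which the signal runs lower than over both. The 18 summits had a median of 32.7 in replicate 1 and, for the 17 with a place there, 34.2 in replicate 2. Over the 17, replicate 2 divided by replicate 1 gave a median of 0.947 and values from 0.353 to 2.29, against a median of 0.897 for all summits. Only 2 of the 18 (11.1%, 1.38 to 34.7), slp2 and oc, were in the own thresholded sets of both replicates, against 35.9% (33.8 to 38.1) of all summits. Another 2 were in replicate 1's own set alone, those of abd-A and hth, and 3 in replicate 2's alone, those of Antp, lab and hth. The listed genes with a summit then numbered 4 (12.5%) in replicate 1's own set, against 8.07% of all protein-coding genes, and 5 (15.6%) in replicate 2's, against 6.08%. At the shares of their span classes the counts would have been 4.37 (13.7%) for replicate 1 and 3.13 (9.77%) for replicate 2. In replicate 1's own set the count was thus not above that share, as it was in the set over both replicates. Span classes leave out the wider surroundings of the listed genes. Per length of these, the set over both replicates held 15.4 summits per Mb in the list, against 14.1 over all genes. The other 11 of the 18 summits (61.1%, 35.7 to 82.7) were in neither own set, against 32.5% (30.3 to 34.6) of all summits. Of these 11, 9 were in the authors' conservative set over both replicates, and the weakest hth summit beside that of hh made up the rest.

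**Figure D3:**
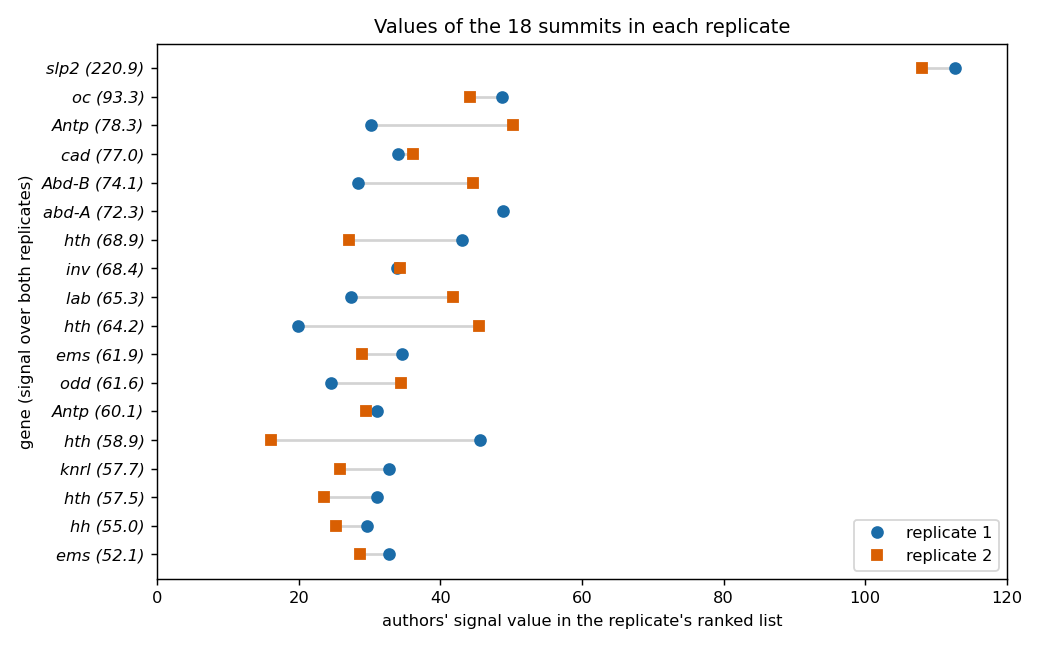
Authors' signal value in the ranked list of replicate 1 (circles) and of replicate 2 (squares) at each of the 18 summits, ordered by the signal over both replicates, which stands in brackets. Lines join the values of 1 summit. At slp2 the values are 112.6 and 107.9, while the hth summits differ in both directions and abd-A has no place in replicate 2.

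In the Antennapedia complex, which sets head and thorax identity, lab and Antp had summits and pb, Dfd and Scr had none. Over all genes 48.2% had one in the span class of Antp, 32.4% in that of pb and Scr and 19.2% in that of lab and Dfd. The Antp gene, which specifies thoracic segments, holds a pair of summits 5699 bp apart in introns. Its stronger one, at chr3R:6920057-6920320, had a signal of 78.3 over both replicates, 30.2 in replicate 1 and 50.3 in replicate 2, and lay 12651 bp from the nearest Antp start site. Its weaker one, at chr3R:6914358-6914621, had 60.1 over both, 31.1 in replicate 1 and 29.5 in replicate 2. The gene CG46458 spans both summits as well. The lab gene, which acts in the head and midgut, had 1 summit at chr3R:6665335-6665598, in an intron 2013 bp from a start site, with 65.3 over both replicates, 27.4 in replicate 1 and 41.8 in replicate 2. For lab and for the stronger Antp summit replicate 2 was thus the higher, and in both cases the summit passed the threshold in that replicate alone.

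The genes of this complex with no summit had weaker places in the ranked list over both replicates. The best place at pb, a mouthpart gene, had a signal of 53.9 at chr3R:6725362-6725625 in an intron, rank 2139 of 156658. The best place had 31.2 at Dfd and 35.4 at Scr, which act in the head and in the head and first thoracic segments. In the separate lists the best places had 29.4 in replicate 1 and 25.7 in replicate 2 at pb, 14.9 and 21.1 at Dfd, and 21.1 and 24.7 at Scr. At each of these 3 genes the best places of the replicates lay apart from each other. Over the whole list, 18 of the 19 genes with no summit had a place within 1000 bp, and the median of their best signals was 33.3, against 33.5 over all protein-coding genes with no summit.

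In the bithorax complex, which sets the identity of the posterior thorax and abdomen, summits went to abd-A and Abd-B but lay inside neither gene. Both are in the span class from 20 to 50 kb, in which 32.4% of all genes had a summit by the rule. The abd-A summit, at chr3R:16834699-16834962, was 4782 bp upstream of its nearest start site, within the long non-coding RNA gene lncRNA:iab8 and the coding gene MSAmiP. It had a signal of 72.3 over both replicates and 48.8 in replicate 1, where it ranked 809 and passed the own threshold; replicate 2's ranked list held no overlapping place. This was the single summit of the 18 missing from a replicate's list, and it was also missing from the conservative set. The Abd-B summit, at chr3R:16919127-16919390, lay 7953 bp beyond the end of Abd-B and within lncRNA:iab8, with 74.1 over both replicates, 28.4 in replicate 1 and 44.6 in replicate 2. By start sites of any gene type the nearest was that of lncRNA:iab8, at 3868 bp, so Abd-B leaves the count under that reading.

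Ubx, which gives the posterior thorax its identity, had no summit by the rule despite a span of 77.8 kb. The best place within 1000 bp of it, at chr3R:16655725-16655988 with a signal of 55.2, was a thresholded summit just beyond the end of Ubx, 195 bp upstream of the start site of modSP and 78569 bp from that of Ubx. It was therefore not counted for Ubx. Within Abd-B itself the best place had a signal of 48.4 and an IDR of 0.0224, 1644 bp from a start site, and within abd-A the best had 39.4, 333 bp from a start site, with an IDR of 0.442.

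Over the whole Hox complexes the summits were few, and their number differed between the sets. From lab to Antp, 338 kb, there were 4 summits, 11.8 per Mb (exact Poisson 95% interval 3.23 to 30.3), against 12.9 per Mb on 3R. From Ubx to Abd-B, 316 kb, there were 3, or 9.51 per Mb (1.96 to 27.8). Both intervals include the value of the arm. In replicate 1's own set the Antennapedia complex had 0 summits and the bithorax complex 2 (6.34 per Mb), against 7.51 per Mb on the arm. In replicate 2's own set they had 2 (5.92 per Mb) and 1 (3.17 per Mb), against 5.77 per Mb on the arm. Places of the ranked list over both replicates, most of them far below the threshold, numbered 1282 per Mb in the Antennapedia complex and 1366 per Mb in the bithorax complex, against 1209 per Mb on the arm.

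**Figure D4:**
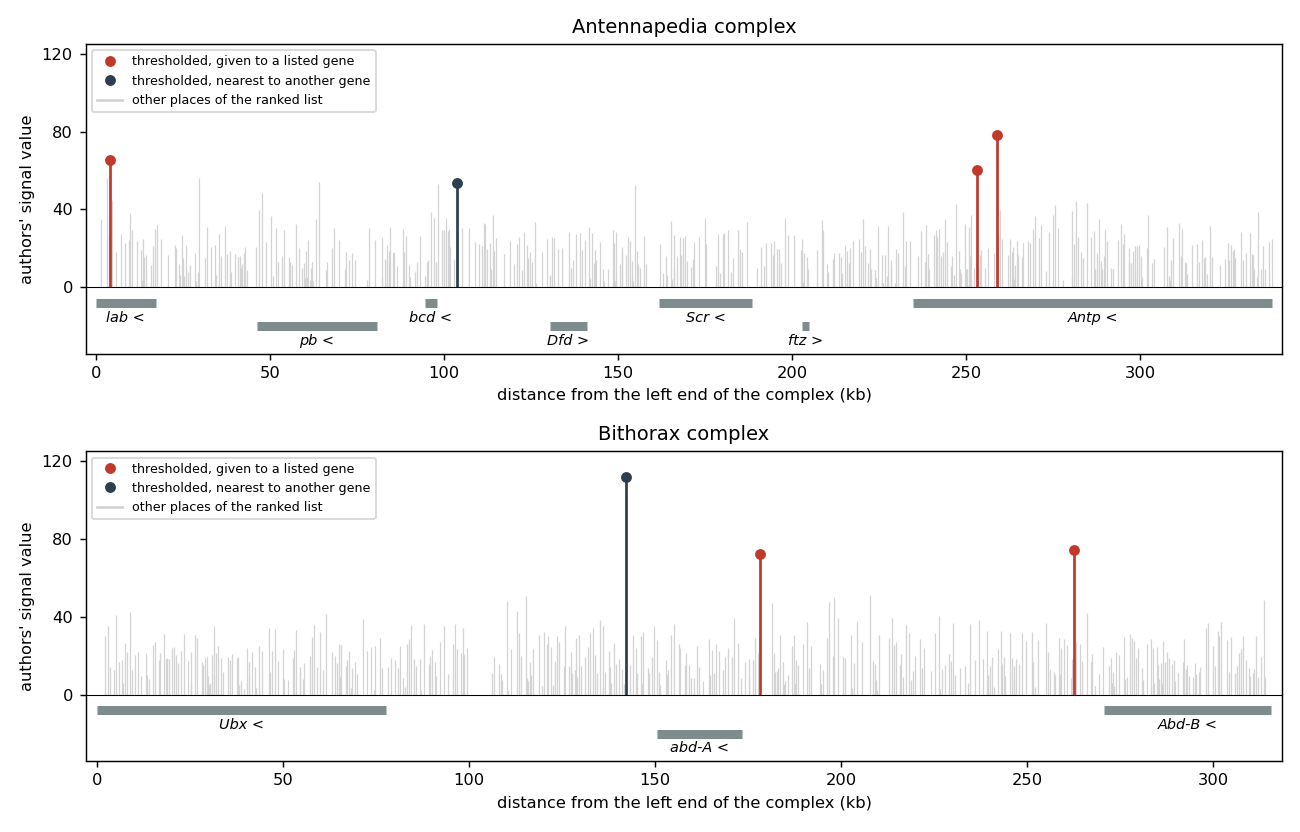
Authors' signal value (y axis) of every place of the ranked list over both replicates along the Antennapedia complex (top) and the bithorax complex (bottom), by distance from the left end (x axis, kb); grey bars below are the listed genes, with their direction of transcription as an arrow head. Red points are thresholded summits given to a listed gene and dark points those nearest to another gene. The lab summit stands at 65.3, the Antp summits at 78.3 and 60.1, the abd-A summit at 72.3 and the Abd-B summit at 74.1, over a field of weaker places.

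Of the Hox cofactors, hth had the most summits in the list and exd had none. Summits by the rule were found for 48.2% of all genes in the span class of hth and 7.57% in that of exd. The hth gene encodes a homeodomain protein that carries Exd into the nucleus, and at 132 kb it is the longest gene of the list. Its 4 summits were all intronic, between 9283 and 53470 bp from the nearest hth start site, with signals of 68.9, 64.2, 58.9 and 57.5. They differed between the replicates in both directions. The summit at chr3R:10597695-10597958 had 43.1 in replicate 1 and 27.1 in replicate 2, that at chr3R:10560674-10560937 had 19.9 and 45.4, that at chr3R:10628362-10628625 had 45.7 and 16.1, and that at chr3R:10623427-10623690 had 31.0 and 23.5. The second passed the own threshold of replicate 2 alone and the third that of replicate 1 alone, and of the 4 only the strongest was in the conservative set. At exd, a short gene of 4.04 kb, the list over both replicates held no place within 1000 bp; replicate 1's list held 1, with a signal of 14.6 and rank 30780, and replicate 2's none. Of all protein-coding genes, 95.3% had such a place in the list over both.

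Of the maternal genes, cad had a summit and bcd had none. By the rule 19.2% of all genes in the span class of cad and 7.57% in that of bcd had one. The cad gene encodes a posterior homeodomain protein that acts later in the gut. Its summit at chr2L:20780817-20781080 lay in a cad intron, 10055 bp from the nearest cad start site, while the start site of the neighbour Pomp was nearer, at 6707 bp. It had 77.0 over both replicates, 34.0 in replicate 1 and 36.1 in replicate 2, close to each other and below both own thresholds. At bcd, the anterior morphogen gene, the best place had a signal of 53.2, 267 bp upstream of the start site, with 21.7 in replicate 1 and 28.3 in replicate 2.

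Of the 5 gap genes, knrl had a summit, and of the 3 head gap genes oc and ems had them. Both classes are small, and 11.8% of all protein-coding genes had a summit by the rule. Among genes from 20 to 50 kb, the span class of knrl and oc, the share was 32.4%. Under 5 kb, where the rest of both classes belong, it was 7.57%. The knrl summit at chr3L:20593803-20594066 lay 3206 bp beyond the end of this nuclear receptor gene, with 57.7 over both replicates, 32.7 in replicate 1 and 25.9 in replicate 2. The other gap genes, gt, kni, tll and hkb, had best places with signals between 22.6 and 30.3, at the low end of the list. The oc summit at chrX:8627215-8627478 lay between genes, 2812 bp beyond the end of oc, a head homeobox gene also known as otd. It had 93.3 over both replicates, 48.6 in replicate 1 and 44.2 in replicate 2, and passed both own thresholds. The homeobox gene ems had 2 intergenic summits beyond its end, at chr3R:13915719-13915982 with 61.9 over both replicates, 34.6 in replicate 1 and 29.0 in replicate 2, and at chr3R:13907727-13907990 with 52.1, 32.7 and 28.7. The zinc finger gene btd had no summit, and its best place had the lowest signal of the list, 22.5. The next lowest best signals were those of gt (22.6) and run (23.6), and these genes and btd are all on X. On X lie also exd, with no place over both replicates, and oc, with a summit. Whether the chromosome bears on the signal was not tested.

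Of the 8 pair-rule genes, slp2 and odd had summits, where 11.8% of all protein-coding genes had one. The slp2 summit at chr2L:3832385-3832648 was the strongest of the list, with a signal of 220.9 over both replicates, 112.6 in replicate 1 and 107.9 in replicate 2. It ranked 113 of 1892, so that 94.0% of all summits had a lower signal. It lay between the neighbouring forkhead genes slp1 and slp2, 4323 bp upstream of slp2, and no annotated start site of any gene type was nearer. Neither gene had strong places closer in: the best within 1000 bp had a signal of 37.4 at slp1 and 24.7 at slp2.

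The slp2 window is the 1 window of all 1892 that holds GGTCACAC more than a single time. The 2 copies are on the same strand, 35 bp apart, and lie to each side of the summit: the first starts 21 bp before it and the second 14 bp after it. The motif was found in 32 of 1892 windows (1.69%), and in 5 of the 1018 windows outside promoters (0.491%). The peaks have a fixed upper width of 264 bp, and all 18 had that width with the summit at its middle, so a position within the peak is known only as well as the middle places it.

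The odd summit at chr2L:3598569-3598832 lay 5523 bp beyond the end of odd, a zinc finger gene next to its relatives sob and drm, with 61.6 over both replicates, 24.5 in replicate 1 and 34.5 in replicate 2. The other pair-rule genes, eve, ftz, prd, run, slp1 and opa, had none, and their best places had signals between 23.6 and 37.4. Among them eve and ftz, both under 5 kb, had 29.7 and 24.9, with an IDR of 0.55 and 0.503. All protein-coding genes under 5 kb with no summit had a median best signal of 31.9 (quartiles 25.9 to 38.6). Over the 6 pair-rule genes with no summit the IDR of the best place ran from 0.227 to 0.622, far from that of the threshold.

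Of the 4 segment polarity genes, inv and hh had summits while en and wg had none, where 11.8% of all protein-coding genes had one. That share was 32.4% in the span class of inv, 19.2% in that of hh and wg and 7.57% in that of en. The homeobox genes inv and en are neighbours with shared control regions. The inv summit at chr2R:11500534-11500797 lay in an intron 24958 bp from the start site, with 68.4 over both replicates, 33.9 in replicate 1 and 34.2 in replicate 2. At en the best place had 37.9. The hh summit at chr3R:23128312-23128575 lay within hh, which encodes the Hedgehog ligand, but 13462 bp from its start site and 463 bp upstream of that of CG31457. It had 55.0 over both replicates, 29.6 in replicate 1 and 25.3 in replicate 2, and was not in the conservative set. At wg, the gene of the Wnt ligand Wingless, the best place had 39.8 and an IDR of 0.194.

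The remaining 9 motifs were compared between the windows of the 18 summits and those of all summits. Matches were counted on both strands, and a CGATA match can lie within TATCGATA, the DRE site. Of the 18 windows, 5 (27.8%) held GAGAG, against 24.6% of all 1892 windows, and 5 (27.8%) held GCCAT, against 28.9%. CGATA was in 6 (33.3%), against 25.3%. These letters were also frequent beside the summits. Of 36 windows offset by 500 bp from the 18 summits, 12 held CGATA, 17 GCCAT and 9 GAGAG. Among the offset windows of all summits the shares were 21.4%, 32.6% and 26.8%. The homeodomain core TAATTA was in 2 (11.1%), against 15.2%, and the Hox-Exd pattern TGATNNAT in 2 (11.1%), against 13.2%. A run of 7 T was in 3 (16.7%), against 23.2%. TATCGATA, the Zelda site CAGGTAG and CACACACA were in none, against 2.17%, 0.846% and 3.65%. The median GC content was 39.3% in the 18 windows and 36.8% in all, and the lab window was the richest, at 60.2%.

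Other patterning genes were set beside the list: 27 genes of mixed roles, from gap and segment polarity genes such as hb, Kr, ci and smo to genes of the terminal system and regulators that act in many pathways, such as tor, cic, fkh and gro. Of these, 10 had a summit by the same rule (37.0%), against 11.8% of all protein-coding genes, with 13 summits. These shares are not matched for span. Per length of the stretches that belonged to the 27 genes there were 16.0 summits per Mb (8.53 to 27.4), against 14.1 over all genes. At promoters lay 1 of the 18 summits of the 32 genes and 4 of these 13. None of the 32 genes and 4 of the 27 (gro, bowl, cic and nkd) had a start site within 1000 bp of a summit. The highest signals were at gro, a corepressor gene (202.9, 147 bp upstream of a start site), bowl, a relative of odd (192.8, 178 bp upstream), and cic, a repressor gene of the terminal system (128.8, 551 bp downstream). Then came nkd, an inhibitor of Wingless signalling (97.3), mid (89.7), sob (81.0), H15 (75.5) and ptc, the Hedgehog receptor gene (74.1). The summits of mid, sob and H15 were intergenic, 15209, 7694 and 20946 bp from their start sites.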

How the data were processed

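ChIP-seq peak lists of 2 biological replicates were analysed. Per the labels they are on build dm6 and were made from sonicated chromatin with a labelled size range of 200 to 800; the age was taken from the source name. Per the deposited documentation, each list comes from the replicate alignments and 1 control. Neither aligner nor peak caller is given in the sources used here. The deposited signal value is the authors' own, and served only to order peaks inside 1 list or to set the replicates side by side. The deposited score restates the IDR as a scaled negative log2 of at most 1000, and the deposited ranked lists hold the IDR as a −log10 value. No list gives read counts, so the depth is unknown. A further 24 columns of the ranked lists, which pair each place with others, name no replicate and were left out.

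The 1915 peaks thresholded over both replicates were used, 1892 of them on 2L, 2R, 3L, 3R, X and 4. Genes came from Ensembl release 115. A summit took its location as promoter within 500 bp of any start site, and otherwise from the exon, intron or intergenic feature that held it, exons before introns. For genes with no summit the place of highest signal within 1000 bp in the ranked list over both replicates that holds every thresholded peak (156658 places) is given. A peak was matched between lists by an overlap of at least 1 bp. Intervals are 95% and cover counting error only. Python 3.11.15, pandas 2.3.3 and scipy 1.17.1 were used, and the assignment was checked on simulated summits.

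The members, the list of other patterning genes (27 of 29 matched) and the motifs were chosen with earlier results of these data known. All members are named, with the 8 other patterning genes of highest signal. The alternatives were the conservative set, each replicate's own set, the stronger 946 peaks, merged peaks, left-out places added back and other rules of assignment. No test was made, because there is 1 group.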

Additional observations from a re-analysis of the deposited data

How the results depend on the processing

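No paired analysis was possible because there is 1 group of 2 replicates and no result comes from a test. The absence of summits within 1000 bp of the start sites of the 32 genes held in the conservative set, in each replicate's own set, in the stronger 946 peaks, with merged peaks, with left-out places added back, and within 500 and 2000 bp; within 5000 bp the count was 3. The counts rest on weak summits. Leaving out a replicate gave 4 to 5 genes with a summit in place of 13, and 4 to 5 summits in place of 18. Genes with a summit in the span then numbered 1 to 3 in place of 6. The median signal was 45.4 to 48.7 in the separate lists. The signal runs lower there, so these medians cannot be set against the 64.7 over both replicates. The median distance was 7908 to 12646 bp in place of 11862 bp. Spans held 1.55 to 4.64 summits per Mb in place of 15.5. The lower numbers are those of replicate 1's own set for the counts of genes, summits and summits per Mb, and the own sets are themselves smaller (1201 and 859 peaks). In the stronger 946 peaks 2 genes, slp2 and oc, kept 2 summits, with a median signal of 157.1, none in a span and 0 summits per Mb of spans. In the conservative set 11 of the 13 genes remained, without abd-A and hh, with a median signal of 68.4 and 9.27 summits per Mb of spans. They were 34.4% of the list, against 10.6% of all protein-coding genes and 17.3% at the shares of the span classes. By start sites of any gene type 12 genes had a summit in place of 13. With spans extended by 1000 bp, 7 genes had a summit in the span in place of 6, Ubx being added. That was 21.9% of the list, against 13.9% of all protein-coding genes and 21.1% at the shares of the span classes. Choosing the best place of genes with no summit by the lowest IDR gave a median signal of 30.8 in place of 33.3. Summits merged or added back changed none of these values.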

Other observations

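The strongest summit within the Hox complexes belongs to no listed gene by the rule. It lies between Ubx and abd-A at chr3R:16798761-16799024, 142 kb from the left end of the bithorax complex, with a signal of 111.9 over both replicates, 50.7 in replicate 1 and 63.2 in replicate 2. Its nearest protein-coding start site is that of Glut3, a glucose transporter gene within the complex, at 10582 bp. In the Antennapedia complex the remaining summit, at chr3R:6764942-6765205, lies within Ama, next to bcd, with 53.6 over both replicates, 31.3 in replicate 1 and 23.3 in replicate 2.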
